A study of Mus musculus with 16 samples.

Results

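Antioxidant and glutathione genes of the type that NRF2 controls were followed in the skeletal muscle of 16 male C57BL/6J mice. The 10 members were Nqo1, Hmox1, Gclc, Gclm, Gsr, Txnrd1, Srxn1, Sod2, Cat, and Gpx1, chosen by name, and all 10 were among the 23235 gene names of the deposited mRNA table and among the 15364 genes that passed the filter on low counts. The mice were bought at 6 weeks of age and formed 4 groups of 4. The control group received the normal diet. The HFD group received D12492J feed, with 60% fat, for 8 weeks. The HFD + RSV and HFD + metformin groups received the same feed for 8 weeks and were then treated with resveratrol or metformin for 6 weeks. Resveratrol was given intragastrically, and how long the HFD mice stayed on the feed while the others were treated is not given in the sources used here. Each mouse gave 1 library of total RNA from which ribosomal RNA had been removed.

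The counts of the mRNA table summed to between 17625909 and 29761026 per mouse, and those of both tables to between 20281801 and 34021101. Which muscle was dissected is not given in the sources used here. The 10 muscle fibre markers summed to at least 166480 CPM (counts scaled by the normalised library size) in every mouse, and the 6 retina markers in the table summed to at most 7.53 CPM, which was checked because the extraction text of the labels names another tissue. Libraries differed in markers of other cells. The 8 white adipocyte markers summed to between 838 and 4326 CPM in the control group and to between 70.2 and 788 CPM in the HFD group, without overlap, and the highest sums were in control mouse 3 (4326 CPM) and HFD + metformin mouse 3 (4025 CPM). The 7 slow fibre markers summed to between 93.6 and 2313 CPM in the control group and to between 97.9 and 270.2 CPM in the HFD group. In HFD versus control, all 7 were lower at an unadjusted P-value below 0.05 (median log2FC -3.55). At that threshold, 5 of 8 fast fibre markers were higher and 4 of 7 Schwann cell markers lower. Over all genes, 12.5% were lower and 11.7% higher, and none of these fibre and Schwann cell markers was called. Of the 6 brown adipocyte markers, 2 were called lower in HFD versus control (median log2FC of the list -3.18). The 6 endothelial markers (388 to 467 CPM in the control group, 330.3 to 369 CPM in the HFD group) and the 5 satellite cell markers (21.6 to 37.8 and 40.2 to 49.1 CPM) also did not overlap. The part of these markers in the results was not tested other than by the adipocyte and slow fibre fits given below. All 4 HFD mice also share a leading number in their titles that no other group has. The meaning of this number is not stated, and it cannot be told apart from the group.

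NRF2, encoded by Nfe2l2, is a transcription factor that is held in the cytoplasm and marked for degradation by KEAP1. When oxidants or electrophiles modify KEAP1, NRF2 accumulates, pairs with a small MAF protein, and binds antioxidant response elements near genes for glutathione synthesis, thioredoxin recycling, and quinone and heme breakdown. In contracting muscle, these enzymes and further enzymes of mitochondria and peroxisomes remove superoxide and hydrogen peroxide. Gclc and Gclm encode the catalytic and modifier subunits of glutamate-cysteine ligase, the first step of glutathione synthesis. Gsr encodes glutathione reductase, which returns oxidized glutathione to its reduced form, and Gpx1 encodes the glutathione peroxidase that consumes it. Txnrd1 encodes the cytosolic thioredoxin reductase, and Srxn1 encodes sulfiredoxin, which repairs overoxidized peroxiredoxins. Sod2 encodes the superoxide dismutase of mitochondria, and Cat encodes catalase. Nqo1 encodes a quinone reductase, and Hmox1 encodes the inducible heme oxygenase.

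The core of the antioxidant response element, TGACNNNGC, was searched on both strands in the RefSeq promoter windows of build GRCm38.p6, which run from 250 bases before to 50 bases after a start site. A match was present in 12.4% of 32851 windows. Its first letters, TGAC, also begin the AP-1 motif TGACTCA, so a match need not separate the motifs. Windows were given for 7 members, 9 windows in all, and 3 of them, of Gclm, Srxn1, and Txnrd1, held a match, each time on the strand opposite to the gene. No match was found in the windows of Cat, Nqo1, Gpx1, and Sod2 or in the other two of Txnrd1. The matches are shown because Gclm, Srxn1, and Txnrd1 are compared below, with the 9 bases of the reverse motif GCNNNGTCA in capitals, each on the strand of the gene. The match began 134 bases before the start site of Gclm (chr3:122245413-122245441) and 28 bases after that of Srxn1 (chr2:152105542-152105570). For Txnrd1, it began 92 bases before a start site that is not that of its main transcript (chr10:82859104-82859132). The main transcript, ENSMUST00000219442, held 87.7% of the Txnrd1 counts and starts at position 82860301. That position lies in the window 82860091-82860390, which held no match.
Gclm: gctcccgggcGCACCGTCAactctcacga
Txnrd1: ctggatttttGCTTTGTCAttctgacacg
Srxn1: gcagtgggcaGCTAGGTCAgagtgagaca
No entry was given for Gclc, Gsr, and Hmox1.

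Levels were compared between members as FPKM, which divides counts by transcript length. In the control group, Cat had the highest mean, 103 ± 49.0 FPKM (SD, n = 4). Sod2 (43.1 ± 7.53 FPKM), Gpx1 (36.8 ± 19.9 FPKM), and Txnrd1 (34.2 ± 4.15 FPKM) followed, and their ranges over the 4 mice overlapped. Srxn1 stood at 16.9 ± 2.19 FPKM and Nqo1 at 11.9 ± 1.47 FPKM. Gclc (7.45 ± 1.23 FPKM), Gclm (7.08 ± 0.938 FPKM), Gsr (6.84 ± 1.03 FPKM), and Hmox1 (6.184 ± 1.503 FPKM) were lowest and close to each other. These values leave out counts given to lncRNA transcripts within exons of Sod2 and Gsr, described below. With those counts added, the control mean rose from 181 to 388 CPM for Sod2 and from 19.8 to 32.5 CPM for Gsr. The order of the members with these counts was not tested. In the HFD group, the ranges of Cat, Sod2, and Txnrd1 overlapped, with means of 48.3 ± 6.75, 39.8 ± 5.33, and 36.9 ± 5.82 FPKM. The plot of the members by mouse shows the values in CPM.

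**Figure D1:**
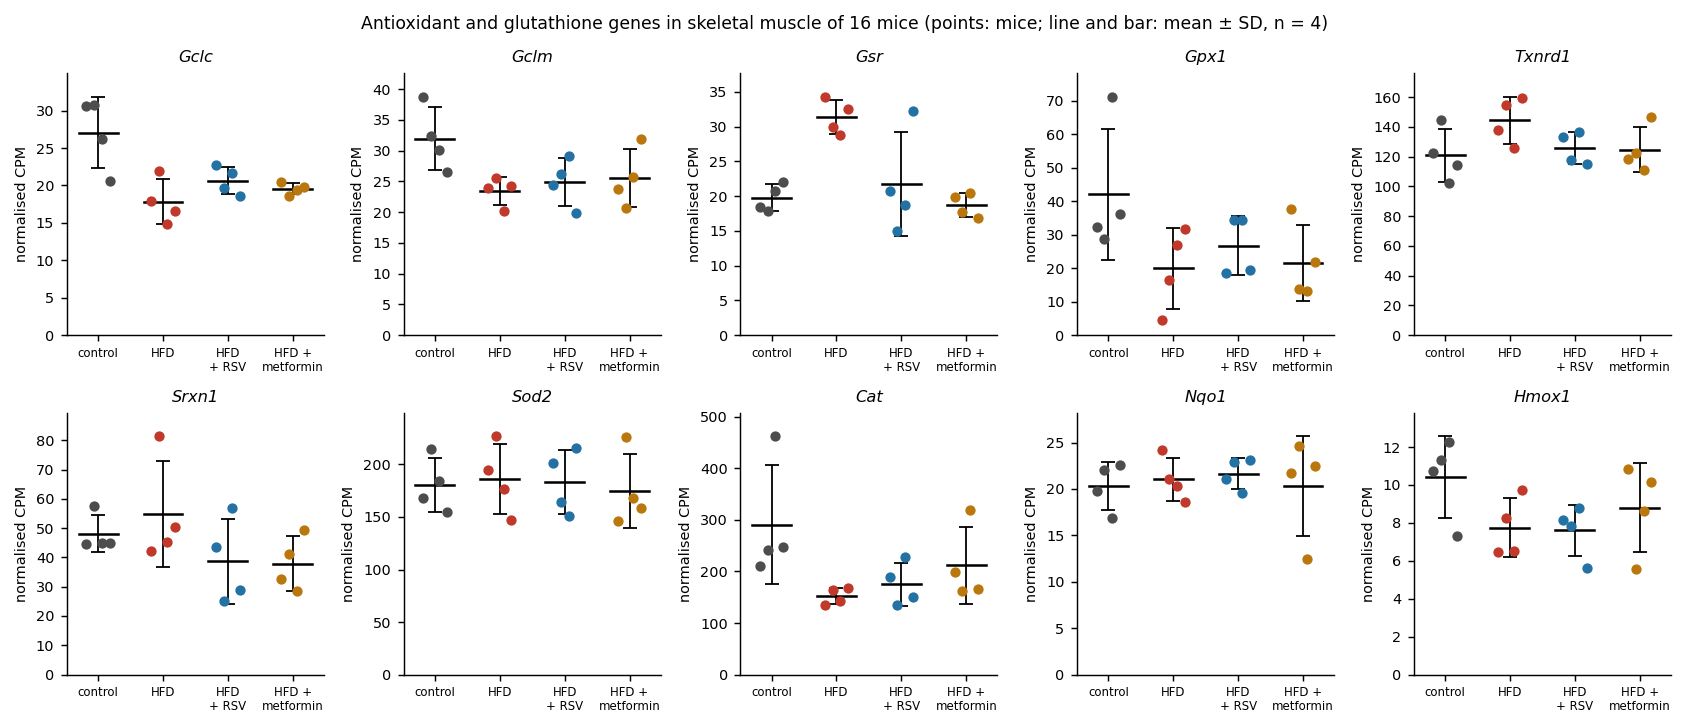
Normalised CPM of the 10 members by group, with 1 point per mouse and the mean ± SD of 4 mice. The 4 HFD mice lie below all control mice for Gclm and Cat and above them for Gsr, and Nqo1 and Sod2 overlap in all 4 groups.

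To find which members differed after the high-fat diet, the HFD group was compared with the control group in a fit to all 16 mice. Gclc was the only member that passed an adjusted P-value below 0.05, and it fell 1.52-fold. Gclm stood at a log2FC of -0.44, Cat at -0.93, Gpx1 at -1.08, and Gsr at +0.67, none of which passed. At the adjusted P-value, 1 of 10 members was called, beside 2.43% of all genes tested (1.11% lower and 1.32% higher in the HFD group). At an unadjusted P-value below 0.05, 5 of 10 members differed, beside 24.2% of all genes. Of these, 4 were lower (12.5% of all genes) and 1 was higher (11.7% of all genes). The groups did not overlap for 3 members, Gclm, Gsr, and Cat, beside 18.3% of all genes. The study screened genes by a P-value threshold together with an absolute log2FC above 1, and its text does not settle whether this P-value was adjusted. With an unadjusted P-value below 0.05, this screen called 1 member, Gpx1, beside 4.94% of all genes. The median log2FC of the members was -0.19, beside -0.02 over all genes. In bulk tissue, fewer cells of a type and less RNA per cell cannot be told apart.

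Of the glutathione synthesis genes, Gclc (chr9:77754535-77794485, GRCm38, plus strand) had 30.6, 30.8, 26.1, and 20.6 CPM in control mice 1 to 4 and 18.0, 21.9, 14.8, and 16.6 CPM in HFD mice 1 to 4. HFD mouse 2 exceeded control mouse 4, so the groups overlapped by that pair. The log2FC was -0.60 ± 0.13 (SE), with an adjusted P-value of 0.0391 in edgeR and an exact permutation P of 0.0571. The call was lost without control mouse 2 or 3, HFD mouse 1, 3, or 4, or HFD + metformin mouse 1, where the adjusted P-value ranged from 0.0520 to 0.107 and the log2FC from -0.62 to -0.52. It was also lost without the filter on low counts (adjusted P = 0.0568), with the adipocyte marker level as a covariate (log2FC -0.65, adjusted P = 0.0703), and with the slow fibre marker level as a covariate (log2FC -0.75, adjusted P = 0.0626). Without the libraries highest in adipocyte markers, the log2FC was -0.62 (adjusted P = 0.0400).

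Gclm, the partner subunit, had 38.7, 32.3, 30.2, and 26.5 CPM in the control mice and 24.0, 25.5, 20.2, and 24.3 CPM in the HFD mice. Every HFD mouse lay below every control mouse, and the closest pair was HFD mouse 2 and control mouse 4. The log2FC was -0.44 ± 0.15, with an adjusted P-value of 0.0992 and an exact permutation P of 0.0286, the smallest that 4 mice against 4 allow. A P-value above the threshold does not show that Gclm was alike in the groups. The gene spans chr3:122245557-122270732 and is overlapped by Gm17494 on the other strand and by the pseudogene Gm6061, so its counts may hold fragments of either.

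Cat (chr2:103453849-103485160, minus strand) had 211, 241, 462, and 248 CPM in the control mice and 136, 164, 143, and 167 CPM in the HFD mice. The groups did not overlap, and control mouse 3 stood far above the rest. The log2FC was -0.93 ± 0.26, with an adjusted P-value of 0.0680 and an exact permutation P of 0.0286. Control mouse 3 and HFD + metformin mouse 3, the mice with the most Cat of all 16 (462 and 320 CPM), were also those with the highest sums of adipocyte markers. Without these libraries, the log2FC was -0.62 ± 0.16 (adjusted P = 0.0520), and with the adipocyte marker level as a covariate it was -0.57 ± 0.23 (adjusted P = 0.236). Without control mouse 3 alone, it was -0.62 (adjusted P = 0.214). The value passed without control mouse 1 (-1.05, adjusted P = 0.0428), without HFD + metformin mouse 3 (-0.93, adjusted P = 0.0239), with DESeq2 (-0.92, adjusted P = 0.0122), and in a fit to the 12 mice without the metformin group (-0.93, adjusted P = 0.0335).

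Gpx1 (chr9:108338903-108340343, plus strand) had 32.2, 28.6, 71.1, and 36.1 CPM in the control mice and 4.67, 16.4, 26.8, and 31.8 CPM in the HFD mice. The spread was wide, and HFD mouse 4 exceeded control mouse 2. The log2FC was -1.08 ± 0.50 (adjusted P = 0.206), and it was -0.59 ± 0.49 with the adipocyte marker level as a covariate and -0.70 without control mouse 3. The plot of adipocyte marker level shows Cat, Gpx1, Gclc, and Tkt, an enzyme of the pentose phosphate pathway described further on, against this sum.

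**Figure D2:**
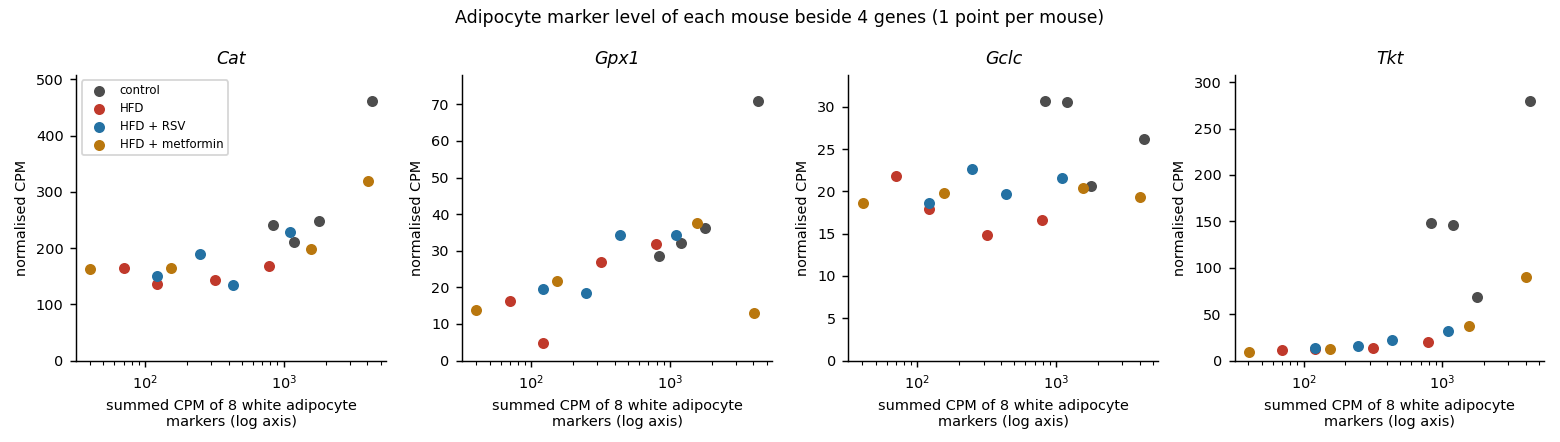
Normalised CPM of Cat, Gpx1, Gclc, and Tkt (vertical axes) against the summed CPM of 8 white adipocyte markers (horizontal log axis), with 1 point per mouse. Cat, Gpx1, and Tkt were highest in control mouse 3, where the markers summed to 4326 CPM and Gpx1 stood at 71.1 CPM. HFD + metformin mouse 3, at 4025 CPM, had 13.1 CPM of Gpx1 and 19.4 CPM of Gclc.

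Among the remaining members, Txnrd1 had means of 121 ± 17.7 CPM in the control group and 144 ± 15.7 CPM in the HFD group (log2FC +0.26 ± 0.12, adjusted P = 0.209). Hmox1 had 10.7, 11.3, 12.3, and 7.33 CPM in the control mice and 6.45, 8.23, 6.54, and 9.74 CPM in the HFD mice (log2FC -0.43 ± 0.22, adjusted P = 0.240), and control mouse 4 lay within the HFD range. Srxn1 ranged from 44.8 to 57.7 CPM in the control group and from 42.1 to 81.4 CPM in the HFD group (log2FC +0.18 ± 0.26, adjusted P = 0.702). Nqo1, often used as the reference target of NRF2, had means of 20.3 ± 2.57 and 21.04 ± 2.33 CPM (log2FC +0.05 ± 0.17, adjusted P = 0.890). Sod2 had means of 181 ± 25.6 and 186 ± 33.5 CPM (log2FC +0.04 ± 0.17, adjusted P = 0.900). For Nqo1, Srxn1, and Sod2, the direction turned in some fits that left out 1 mouse, in which the log2FC ranged from -0.03 to +0.10, from -0.07 to +0.29, and from -0.06 to +0.14.

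**Figure D3:**
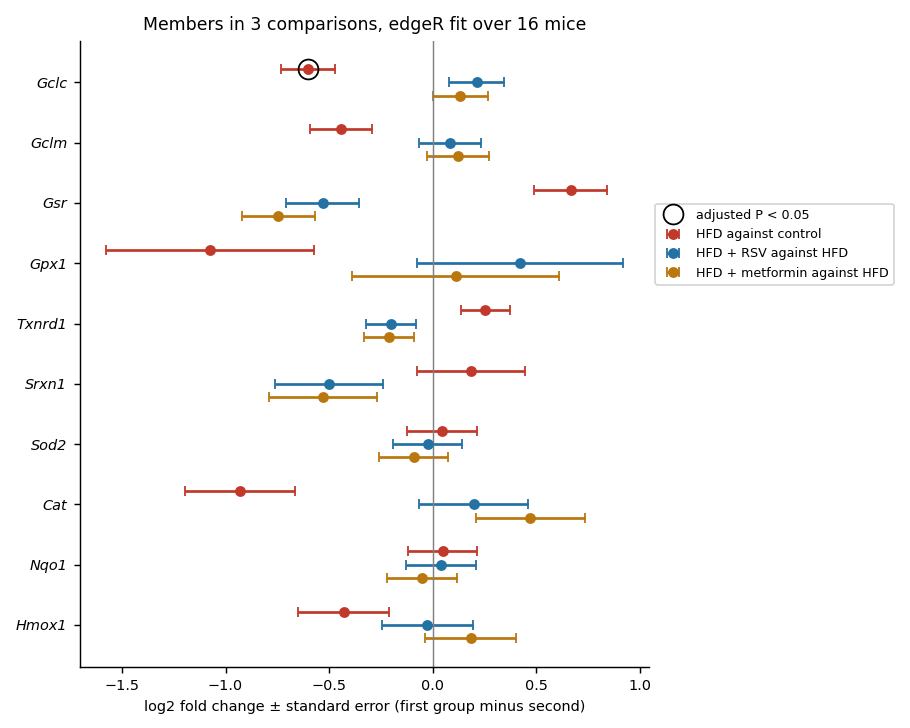
log2FC ± SE of each member (horizontal axis, first group minus second) in HFD versus control and in each treated group against the HFD group, from the edgeR fit over 16 mice. The circle marks Gclc in HFD versus control, the only value with an adjusted P-value below 0.05, and Gsr lies at +0.67 in that comparison and at -0.53 and -0.74 in the others.

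Glutathione reductase was the only member that was higher in every HFD mouse than in every control mouse, and its counts stood opposite to those of a lncRNA that shares its last exon. Gsr (chr8:33652523-33698163, plus strand) had 18.5, 17.9, 20.8, and 22.0 CPM in the control mice, 34.3, 30.0, 28.9, and 32.5 CPM in the HFD mice, 20.7, 15.05, 18.8, and 32.3 CPM in the HFD + RSV mice, and 19.9, 17.8, 20.5, and 16.9 CPM in the HFD + metformin mice. The 4 HFD mice and HFD + RSV mouse 4 formed the upper level, and the 11 other mice formed the lower one. The log2FC was +0.67 ± 0.17 in HFD versus control (adjusted P = 0.0573, exact permutation P = 0.0286), -0.53 ± 0.17 in HFD + RSV versus HFD (adjusted P = 0.999, exact permutation P = 0.0857), and -0.74 ± 0.17 in HFD + metformin versus HFD (adjusted P = 0.398, exact permutation P = 0.0286). In HFD versus control, the value passed without HFD + metformin mouse 3 (adjusted P = 0.0326), without HFD + RSV mouse 2 (adjusted P = 0.0446) or mouse 4 (adjusted P = 0.0229), with DESeq2 (adjusted P = 0.00853), in the fit to 12 mice (adjusted P = 0.0450), and with the library sizes of both tables (adjusted P = 0.0496).

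The lncRNA table holds NONMMUT065156.2, which lies at chr8:33697247-33698161 (GRCm38), wholly within exon 13, the last exon of the Gsr transcript ENSMUST00000033992. Its 915 bases are 34.2% of the length of that transcript, and 46 of them are the end of the coding sequence. The stretch below, on the strand of Gsr at chr8:33697227-33697292, runs to the last base before the stop codon, with the bases that the lncRNA shares in capitals and the 20 bases before them in lower case.
Gsr: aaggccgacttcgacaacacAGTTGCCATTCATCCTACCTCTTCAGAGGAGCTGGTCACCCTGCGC
The table gives no strand for this lncRNA. It had 230, 379, 326, and 253 counts in the control mice, 2, 3, 2, and 2 counts in the HFD mice, 298, 268, 276, and 2 counts in the HFD + RSV mice, and 233, 346, 351, and 367 counts in the HFD + metformin mice. The 5 libraries with 2 or 3 counts were the 4 HFD mice and HFD + RSV mouse 4, which were also the 5 libraries with the most Gsr. The fold change was taken against 3 counts in each HFD library. On this basis, the mean of the control mice was 97.2-fold and that of the HFD + metformin mice 102-fold as high. These ratios use the highest observed count and do not include counting error. Of the 17599 lncRNAs tested, 1.61% passed in HFD versus control, and NONMMUT065156.2 was among them (adjusted P = 0.0116). It did not pass in HFD + RSV versus HFD (adjusted P = 0.0656) or in HFD + metformin versus HFD (adjusted P = 0.119). The study, by its own screen, listed this lncRNA as lower in HFD versus control and higher in HFD + RSV versus HFD. It also measured the lncRNA by quantitative PCR in cultured mouse myotube cells. The forward primer given for that assay lies within the shared bases printed above. As the whole lncRNA lies within the last exon of Gsr, any primer pair within it also matches the Gsr transcript. Such a pair does not separate them by sequence. The assay itself was not tested here.

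When the counts of the lncRNA were added to those of Gsr, the groups overlapped. The sums had means of 32.5 ± 2.26 CPM in the control group, 31.5 ± 2.44 CPM in the HFD group, 31.1 ± 3.17 CPM in the HFD + RSV group, and 32.2 ± 2.39 CPM in the HFD + metformin group, and all 16 mice lay between 26.7 and 35.4 CPM. The log2FC of Gsr in this fit was -0.05 ± 0.09 in HFD versus control (adjusted P = 0.790), -0.02 ± 0.09 in HFD + RSV versus HFD (adjusted P = 0.999), and +0.03 ± 0.09 in HFD + metformin versus HFD (adjusted P = 0.936). The difference between groups was therefore present in the gene counts of Gsr and absent from the sums.

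**Figure D4:**
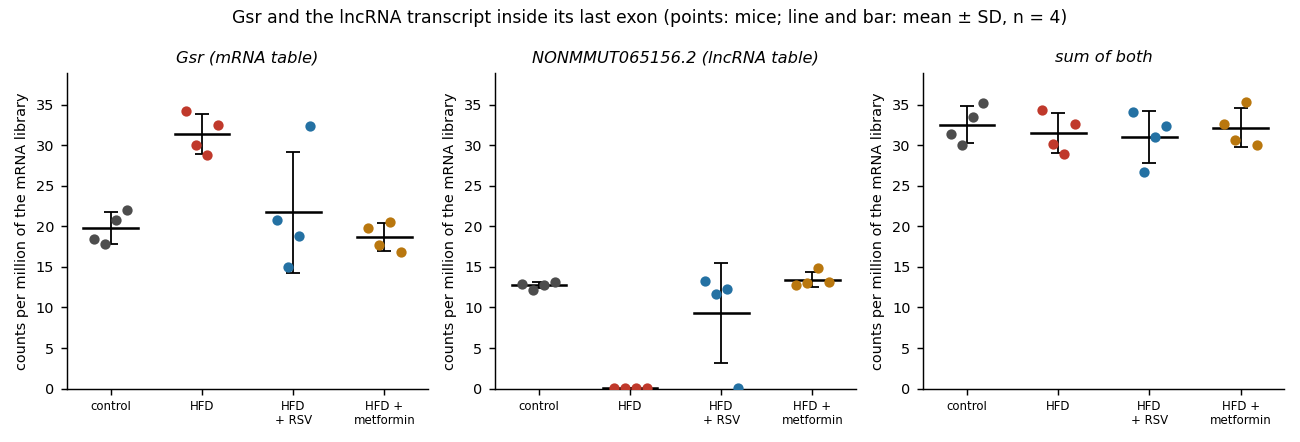
Gsr in the mRNA table, NONMMUT065156.2 in the lncRNA table, and the sum of both, in CPM of the normalised mRNA library, with 1 point per mouse and the mean ± SD of 4 mice. The HFD mice and HFD + RSV mouse 4 are high for Gsr and near 0 for the lncRNA, and the sums of all 16 mice lie between 26.7 and 35.4 CPM.

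Sod2 also shares an exon with lncRNA transcripts. NONMMUT028277.2 (chr17:13015744-13018117) and NONMMUT028278.2 (chr17:13017730-13020124) lie within exon 5 of its transcript ENSMUST00000007012 in GENCODE M21. The deposited Sod2 transcript ends earlier, at position 13018119, so the second of them runs past it. They had between 2114 and 5554 and between 959 and 2336 counts per mouse. With these counts added, the log2FC of Sod2 was +0.11 ± 0.18 in HFD versus control (adjusted P = 0.736), and the groups overlapped as before. No other member held a lncRNA transcript wholly within an exon. Further lncRNAs share only some bases with member exons, and their counts were not added. Among them, NONMMUT082291.1 shares 771 bases with Txnrd1 exons (log2FC +0.84 in HFD versus control, adjusted P = 0.0624). NONMMUT006557.2 shares 461 bases with them (log2FC -0.10, adjusted P = 0.909).

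To find which members differed after treatment, the HFD + RSV and HFD + metformin groups were compared with the HFD group. No member was called in either comparison at the adjusted P-value, beside 0% and 0.013% of all genes. At an unadjusted P-value below 0.05, 1 of 10 members differed in each comparison, beside 4.72% of all genes with RSV and 8.02% with metformin, and it was Gsr both times. DESeq2 called no member with RSV and 1 with metformin, again Gsr (adjusted P = 0.0305). The same screen called no member, beside 1.08% of all genes with RSV and 1.76% with metformin. The groups overlapped for every member with RSV, whereas 4.2% of all genes did not overlap. With metformin, they did not overlap for 1 member, Gsr, beside 3.72% of all genes. These comparisons share the HFD mice with the comparison of the HFD and control groups. Markers of other cells also moved with treatment. The 6 blood markers summed to between 362 and 477 CPM in the HFD group, 508 and 1345 CPM with RSV, and 500.3 and 1395 CPM with metformin, without overlap, and 4 and 6 of them were higher at an unadjusted P-value below 0.05. With RSV, 6 of 7 Schwann cell markers and 5 of 7 slow fibre markers were higher at that threshold. The summed fast fibre markers with RSV (93267 to 100980 CPM, HFD group 102670 to 112600 CPM) and the satellite cell markers with metformin (25.2 to 38.5 CPM) also did not overlap those of the HFD group. None of these markers was called at the adjusted P-value, and their part in the values of the members was not tested.

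For the members other than Gsr, both treated groups overlapped with the HFD mice. Gclc had 22.7, 19.7, 21.6, and 18.6 CPM in the HFD + RSV mice and 20.4, 18.6, 19.4, and 19.8 CPM in the HFD + metformin mice. The log2FC against the HFD group was +0.21 ± 0.13 with RSV (adjusted P = 0.999) and +0.13 ± 0.13 with metformin (adjusted P = 0.787). Gclm had 24.4, 26.2, 29.1, and 19.9 CPM with RSV and 23.8, 20.7, 25.7, and 31.8 CPM with metformin (log2FC +0.08 ± 0.15 and +0.12 ± 0.15). Cat had 189, 134, 228, and 150 CPM with RSV and 199, 163, 320, and 165 CPM with metformin (log2FC +0.20 ± 0.26 and +0.47 ± 0.26). Gpx1 had means of 26.7 ± 8.84 CPM with RSV and 21.6 ± 11.4 CPM with metformin (log2FC +0.42 ± 0.50 and +0.11 ± 0.50). For Gclc, Gclm, Cat, and Gpx1, the differences from the HFD group thus did not pass the test, which does not show that the levels were alike.

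Srxn1 had 42.1, 81.4, 45.1, and 50.3 CPM in the HFD mice, 43.6, 25.3, 56.9, and 28.9 CPM in the HFD + RSV mice, and 32.7, 41.0, 28.4, and 49.4 CPM in the HFD + metformin mice. All groups overlapped, and HFD mouse 2 was the highest of all 16 mice. The log2FC against the HFD group was -0.50 ± 0.26 with RSV (adjusted P = 0.999) and -0.53 ± 0.26 with metformin (adjusted P = 0.633). Txnrd1, the reductase of the same thioredoxin pathway, had means of 126 ± 10.9 CPM with RSV and 125 ± 15.3 CPM with metformin (log2FC -0.20 ± 0.12 and -0.21 ± 0.12). For Nqo1, Hmox1, and Sod2, the log2FC against the HFD group lay between -0.09 and +0.18 in both treated groups.

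Against the control group, no member passed in the HFD + RSV group or the HFD + metformin group, beside 0.00651% and 0% of all genes. At an unadjusted P-value below 0.05, 3 members differed in the HFD + RSV group, Gclc, Gclm, and Cat, beside 15.8% of all genes, and 2 in the HFD + metformin group, Gclc and Gclm, beside 9.5% of all genes. Gclc in the HFD + metformin group lay below every control mouse (log2FC -0.47 ± 0.13, adjusted P = 0.257, exact permutation P = 0.0286). The share of all genes without overlap was not counted for these groups. Between the HFD + RSV and HFD + metformin groups, no member passed at the adjusted or the unadjusted P-value, beside 0% and 4.68% of all genes. The largest differences between them were +0.31 ± 0.50 for Gpx1 and -0.27 ± 0.26 for Cat, as log2FC. In the test of any difference among the 4 groups, no member passed, beside 0.117% of all genes. The lowest adjusted P-value was 0.140, which Gclc and Gsr shared after rounding.

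Below the gene sums, 21 of the 32 deposited transcripts of the members passed the filter on low counts. No member transcript was called in HFD versus control, beside 0.0157% of 44573 transcripts, or in any other comparison. DESeq2 called 3 member transcripts in HFD versus control and 1 in HFD + metformin versus HFD. A single transcript held most counts of every member. ENSMUST00000034905 held 98.8% of the counts of Gclc, ENSMUST00000033992 held 99.7% of those of Gsr, ENSMUST00000028610 held 99.9% of those of Cat, ENSMUST00000029769 held 94.1% of those of Gclm, and ENSMUST00000082429 held 95.6% of those of Gpx1. ENSMUST00000005548 of Hmox1 (97.6%) and ENSMUST00000041500 of Srxn1 (98.7%) were likewise dominant, and Nqo1 (ENSMUST00000003947) and Sod2 (ENSMUST00000007012) had 1 transcript each. Txnrd1 was the most divided, with 87.7% of its counts in ENSMUST00000219442 and 5.47% in ENSMUST00000219911, a transcript with a retained intron. Txnrd1 is overlapped by Eid3 on the same strand and by Gm38560 and Gm47073 on the other, so its counts may hold fragments of these genes. The share of ENSMUST00000219911 was 6.63 ± 1.41% in the control group and 5.40 ± 0.901% in the HFD group (exact permutation P = 0.200), and its groups overlapped.

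The regulators of the pathway were examined next. Nfe2l2, which encodes NRF2, fell 1.38-fold in HFD versus control. It had 65.6, 65.8, 73.7, and 61.9 CPM in the control mice, 50.6, 55.0, 44.6, and 43.1 CPM in the HFD mice, 52.0, 55.1, 45.2, and 44.4 CPM in the HFD + RSV mice, and 48.7, 44.9, 45.2, and 53.2 CPM in the HFD + metformin mice. All 12 mice on the high-fat diet lay below all 4 control mice. Between the HFD and control groups alone, 18.3% of all genes did not overlap. The share of all genes for 12 mice against 4 was not counted, and each comparison uses the same 4 control mice. The log2FC was -0.47 ± 0.10 in the HFD group (adjusted P = 0.0346), -0.44 ± 0.10 in the HFD + RSV group (adjusted P = 0.125), and -0.48 ± 0.10 in the HFD + metformin group (adjusted P = 0.183), each against the control group. Against the HFD group, it was +0.03 ± 0.10 with RSV (adjusted P = 0.999) and -0.01 ± 0.10 with metformin (adjusted P = 0.984).

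Maff, a small MAF partner of NRF2, fell 2.54-fold in the HFD group. It had 7.81, 10.04, 9.07, and 7.96 CPM in the control mice and 2.29, 3.95, 3.01, and 4.50 CPM in the HFD mice (log2FC -1.34 ± 0.28, adjusted P = 0.0336). The HFD + RSV mice had 7.60, 3.30, 3.28, and 3.08 CPM and the HFD + metformin mice 3.14, 2.47, 3.72, and 2.59 CPM, so that, as for Nfe2l2, all 12 mice on the high-fat diet lay below the control mice. The log2FC against the control group was -1.02 ± 0.28 with RSV (adjusted P = 0.155) and -1.55 ± 0.28 with metformin (adjusted P = 0.125). Of the 11 regulators tested, these 2 fell and none rose, beside 1.11% and 1.32% of all genes. At an unadjusted P-value below 0.05, 4 regulators were lower and 3 higher, beside 12.5% and 11.7% of all genes. Mafk, another small MAF gene, stood at a log2FC of -0.49 ± 0.21 (adjusted P = 0.172), Keap1 at +0.29 ± 0.12 (adjusted P = 0.159), Cul3, a subunit of the ubiquitin ligase that KEAP1 recruits, at +0.32 ± 0.14 (adjusted P = 0.182), and Bach1, a repressor at the same elements, at +0.02 ± 0.15 (adjusted P = 0.957). The values of Mafk, Keap1, Cul3, and Bach1 are given for their roles and after they were seen. The calls of Nfe2l2 and Maff were lost with the adipocyte marker level as a covariate (log2FC -0.50, adjusted P = 0.0631, and log2FC -1.23, adjusted P = 0.0938) and with the slow fibre marker level as a covariate (log2FC -0.50, adjusted P = 0.125, and log2FC -1.66, adjusted P = 0.0654). The call of Nfe2l2 was also lost without the filter on low counts (adjusted P = 0.0528) and without control mouse 2 or 3 or any 1 of the 4 HFD mice (adjusted P from 0.0525 to 0.107), and that of Maff without control mouse 2, 3, or 4 or HFD mouse 1, 2, or 3 (adjusted P from 0.0584 to 0.105).

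Further redox genes were counted in 8 lists, the regulators included, of 114 genes, of which 106 were tested. In HFD versus control, 4 of the 106 fell, Nfe2l2, Maff, Gsto1, and Tkt, and none rose, beside 1.11% and 1.32% of all genes. This count moved with single mice. It was 0 without control mouse 2 or 3 or HFD mouse 1, 2, or 3, and 2 without control mouse 4 or HFD mouse 4. It was 8 without control mouse 1, 9 without HFD + metformin mouse 4, and 22 without HFD + metformin mouse 3. In the treated groups versus HFD, none of the 106 passed, with edgeR or with DESeq2. At an unadjusted P-value below 0.05, 32 were lower and 11 higher in HFD versus control, beside 12.5% and 11.7% of all genes. With RSV against the HFD group, 4 were lower and 2 higher, beside 4.72% of all genes in both directions together, and with metformin 5 were lower and 11 higher, beside 8.02%.

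Of the 8 tested genes that supply glutathione, none passed, and the median log2FC in HFD versus control was -0.00. Ggct, which degrades gamma-glutamyl dipeptides, stood at +0.59 ± 0.17 (adjusted P = 0.0721, and 0.0420 or 0.0490 without control mouse 1 or HFD + metformin mouse 3) and Gss, the second enzyme of glutathione synthesis, at -0.34 ± 0.18 (adjusted P = 0.262). Of the 26 tested genes that use glutathione, Gsto1, an omega-class glutathione transferase, fell 1.48-fold, from 19.3, 26.1, 28.4, and 24.8 CPM to 17.3, 17.3, 17.2, and 14.7 CPM (log2FC -0.57 ± 0.13, adjusted P = 0.0438). All HFD mice lay below all control mice for Gsto1, beside 18.3% of all genes that did not overlap in either direction. The median of this list was -0.26. The call of Gsto1 was lost without control mouse 2, 3, or 4, any 1 of the 4 HFD mice, HFD + metformin mouse 1, or HFD + RSV mouse 1 or 2 (adjusted P from 0.0527 to 0.133) and without the libraries highest in adipocyte markers (log2FC -0.50, adjusted P = 0.0592). The call was also lost without the filter on low counts (adjusted P = 0.0626) and with the adipocyte or the slow fibre marker level as a covariate (log2FC -0.58, adjusted P = 0.0978, and log2FC -0.33, adjusted P = 0.243).

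None of the 18 thioredoxin and peroxiredoxin genes passed, at a median log2FC of -0.16. Prdx4, the peroxiredoxin of the endoplasmic reticulum, had between 3.83 and 4.72 CPM in the control mice and between 2.34 and 2.90 CPM in the HFD mice (log2FC -0.64 ± 0.17, adjusted P = 0.0604). Txnip, the inhibitor of thioredoxin that also restrains glucose uptake, had between 1056 and 1360 CPM in the control mice and between 768 and 1012 CPM in the HFD mice (log2FC -0.51 ± 0.16, adjusted P = 0.0824). Both were separated between these groups without passing the test, beside 18.3% of all genes that did not overlap. Prdx4 passed without HFD + metformin mouse 2 (adjusted P = 0.0428) or mouse 3 (adjusted P = 0.0297), and Txnip without HFD + metformin mouse 3 (adjusted P = 0.0250).

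Of the 11 genes of superoxide removal and NADPH supply, Tkt, the transketolase of the pentose phosphate pathway, fell 11.2-fold, and the median of the list was -0.88. Tkt had 147, 148, 280.2, and 68.1 CPM in the control mice and 12.5, 11.2, 13.7, and 20.1 CPM in the HFD mice (log2FC -3.48 ± 0.66, adjusted P = 0.0247). The HFD + RSV mice had between 12.97 and 31.3 CPM and the HFD + metformin mice between 9.40 and 90.1 CPM, and in each of these groups the mouse with the most Tkt was also the one with the highest adipocyte marker sum. Control mouse 3 had both the most Tkt and the most white adipocyte markers of the 16. It also had the most Ucp1, a brown adipocyte marker, which ranged from 3.12 to 408 CPM in the control and 0.249 to 1.06 CPM in the HFD mice. The summed brown adipocyte markers overlapped (233 to 975 and 198 to 276 CPM). No fit used them, and their part in Tkt was not tested. With the white adipocyte marker level as a covariate, the log2FC of Tkt was -2.49 ± 0.35 (adjusted P = 0.00775). Without the libraries highest in white adipocyte markers, it was -3.07 ± 0.48 (adjusted P = 0.00990). The call was lost with the slow fibre marker level as a covariate (log2FC -3.73, adjusted P = 0.0815) and without control mouse 2 or 3 or HFD mouse 1, 2, or 3 (adjusted P from 0.0625 to 0.0827).

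No gene passed in the 3 remaining lists. Of the 8 genes of heme and iron handling, Fech stood at a log2FC of +0.23 ± 0.10 (adjusted P = 0.175) and Blvrb at -0.64 ± 0.29 (adjusted P = 0.192). Of the 16 other NRF2-type detoxification genes, Abcc4, a transporter of conjugates, stood at +0.31 ± 0.11 (adjusted P = 0.118) and Aldh7a1, an aldehyde dehydrogenase, at +0.22 ± 0.08 (adjusted P = 0.124). Of the 8 sources of oxidants, Nox4, an NADPH oxidase, stood at -1.12 ± 0.30 (adjusted P = 0.0617, and 0.0196 without HFD + metformin mouse 3) and Duox1 at +0.54 ± 0.24 (adjusted P = 0.178).

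**Figure D5:**
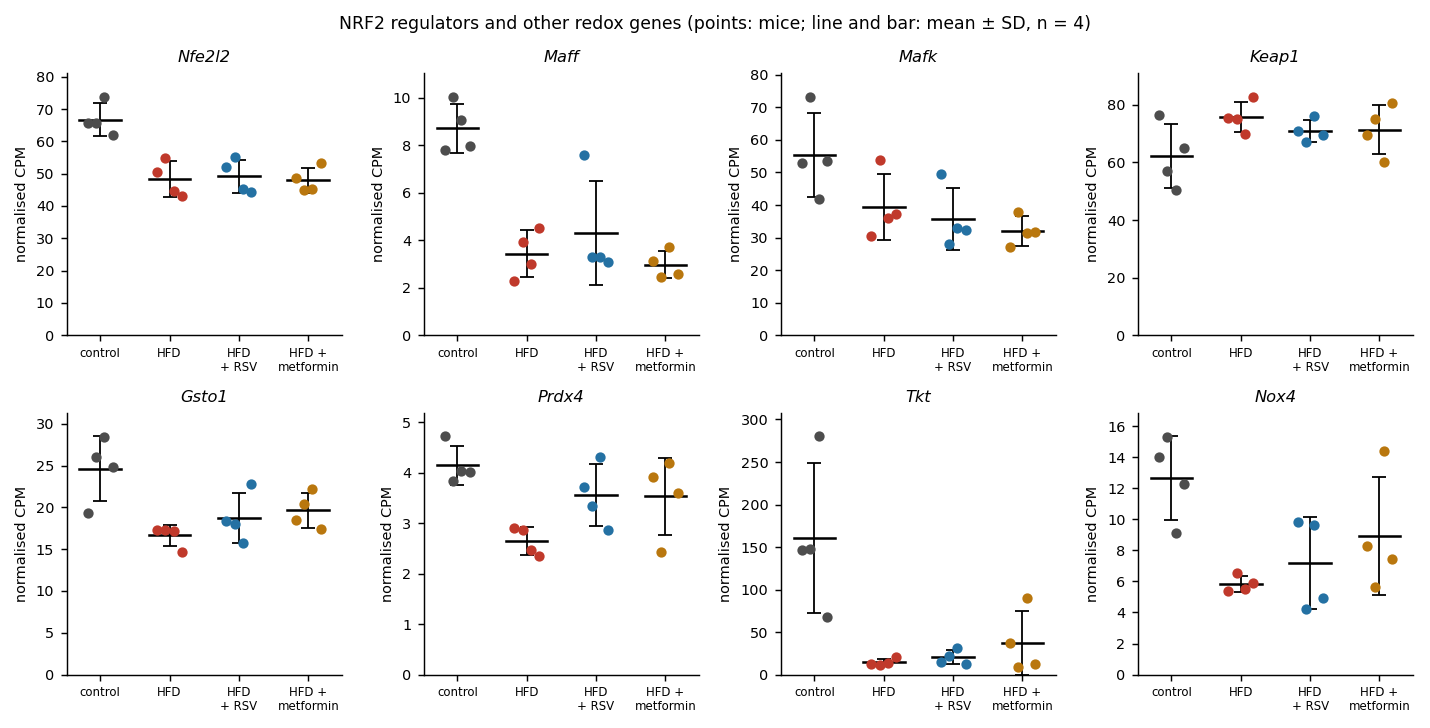
Normalised CPM of 4 regulators of the NRF2 pathway and 4 other redox genes by group, with 1 point per mouse and the mean ± SD of 4 mice. For Nfe2l2 and Maff, all 12 mice on the high-fat diet lie below the 4 control mice, and for Tkt control mouse 3 stands at 280.2 CPM. Between the HFD and control groups alone, 18.3% of all genes did not overlap.

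The relations among members varied in sign. The Pearson r of log2 CPM after the group means were subtracted, given as a description over 16 mice that share 1 normalization, ranged from -0.818 (Nqo1 and Cat) to 0.719 (Txnrd1 and Srxn1) over 45 pairs. Control mouse 3 and HFD + metformin mouse 3, with the most Cat and the highest white adipocyte marker sums, had 16.9 and 12.5 CPM of Nqo1. These were the lowest Nqo1 values of their groups, and the part of these libraries in the lowest r was not tested. Gclc and Gclm stood at 0.636. Gsr and Gclm stood at -0.525. Among the 5 genes with the pattern most like that of Gclc, by Pearson r of log2 CPM over the 16 mice and among 15364 genes, were Usp3 (0.859), Cblb (0.851), Peli1 (0.827), and Tcp11l2 (0.815). These values include the differences between groups, and with the group means subtracted they were 0.713, 0.655, 0.676, and 0.624.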

How the data were processed

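Skeletal muscle RNA of 16 mice was sequenced, with 1 library per mouse and 4 mice per group. Per the submitters' processing notes, reads were trimmed with fastp and aligned with HISAT2, and the genome build was GRCm38. According to the methods of the study, fragments were counted with StringTie. The authors deposited estimated counts, as whole numbers without normalization, and FPKM values for each transcript and mouse, in an mRNA table and a lncRNA table. The annotation and the strand setting of the counting are not given in the sources used here. StringTie splits fragments among overlapping transcripts, and mRNAs and lncRNAs that share an exon can therefore exchange counts.

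The 82388 mRNA transcripts (4 of them split over 2 lines and joined) were summed per gene name. Genes were filtered with filterByExpr (minimum count 10, minimum total count 15), scaled by TMM, and fitted with the quasi-likelihood model of edgeR 4.0.16 with robust estimation in R 4.3.3, with all 16 mice in 1 fit and Benjamini-Hochberg adjustment over all genes tested. Every adjusted P-value of a gene comes from edgeR unless DESeq2 1.42.0 or limma 3.58.1 is named. The SE of a log2FC was derived from the quasi-likelihood F. CPM values are TMM-normalised, and log2 CPM for the exact two-sided permutation tests, whose smallest P is 0.0286, used a prior count of 2. Where a group had at most 3 counts in every library, the fold change was taken against 3 counts per library. Such ratios set a group mean against an observed count and do not include counting error. The common coefficient of variation between mice was 0.261 for genes. The fit was tested on simulated data.

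Replicates are mice by their titles. The members and lists were chosen with earlier results of these data known. The genes named are the 10 members, up to 4 called genes of each list (or the 2 with the smallest P-value where none was called) in HFD versus control, the main transcript of each member, the 5 genes most like Gclc (1 of them is not reported here), and lncRNAs inside a member, for which strand could not be used. The alternatives were DESeq2-type size factors, DESeq2, no filter on low counts, the 12 mice without metformin, library sizes of both tables, limma on log2 FPKM with pseudocounts of 0.1 and 1, no robust estimation, each mouse left out, and FPKM shares for transcripts. Chosen after seeing the data were the addition of lncRNA counts within exons, the fit without the 2 libraries highest in adipocyte markers, the marker levels as covariates, and a block on the last number of the titles. Of the retina and neutrophil markers, 4 and 2 were not analysed here. Positions are those of the files, on GRCm38. All member transcripts other than that of Sod2 have the start and end positions of GENCODE M21, and their exons were not compared.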

Additional observations from a re-analysis of the deposited data

Results flagged for a closer look

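Mice that stood apart within their group of 4 were looked for in 25 items, the members, further genes named in the lists, and NONMMUT065156.2, which gave 100 groups of 4 values on the log2 scale. Chance alone flags about 1 in 20 such groups, and 7 were found. Among the members, Srxn1 stood at 57.7 CPM in control mouse 2, where the other control mice had 44.8 to 45.1 CPM. NONMMUT065156.2 stood at 0.0894 CPM in HFD + RSV mouse 4 and at 11.6 to 13.3 CPM in the other HFD + RSV mice, and this mouse also had the Gsr level of the HFD mice. In HFD mouse 2, the same lncRNA stood at 0.125 CPM beside 0.0865 to 0.0919 CPM in the other HFD mice, which is a difference of 3 counts against 2.

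Maff stood at 7.60 CPM in HFD + RSV mouse 1, and the other HFD + RSV mice had 3.08 to 3.30 CPM. Gsto1 stood at 14.7 CPM in HFD mouse 4 beside 17.2 to 17.3 CPM in the others, and Txnip at 1056 CPM in control mouse 4 beside 1323 to 1360 CPM in the others. Blvrb stood at 2.82 CPM in HFD + RSV mouse 4 beside 4.34 to 4.44 CPM in the others. What set these mice apart was not tested.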

How the results depend on the processing

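In HFD versus control, the count of members called was 1 in the fit reported above, 3 with DESeq2 (Gclc, Gsr, and Cat), 3 in the fit to 12 mice, 2 with the library sizes of both tables, 0 without the filter on low counts, 0 with either marker covariate, and 0 to 3 when 1 mouse was left out. In HFD + metformin versus HFD, the count was 0 in the fit reported above and 1 with DESeq2. In the test of any difference among the 4 groups, it was 0 in the fit reported above, 2 with DESeq2, and 0 to 1 when 1 mouse was left out, where the 1 came without HFD + RSV mouse 4. The count of member transcripts called was 0 in the fit reported above and, with DESeq2, 3 in HFD versus control and 1 in HFD + metformin versus HFD. Of the further redox genes, 4 were called in HFD versus control in the fit reported above, 22 in the fit to 12 mice, 23 with DESeq2, 2 when no low counts were filtered out, 7 without the libraries highest in adipocyte markers, 1 and 0 with the adipocyte and slow fibre covariates, and 0 to 22 when 1 mouse was left out. Versus control, DESeq2 called 6 of them in HFD + RSV and 3 in HFD + metformin, where the fit reported above called 0. Why the fits differ was not tested. The single member call, that of Gclc in HFD versus control, was lost in 10 of 29 alternatives and kept its sign in all of them. The sign turned in 97 values of members and named genes that passed in neither fit and were below their SE in at least 1 of the fits, among them Gsr in HFD versus control, from +0.67 to -0.05 when the lncRNA counts were added. The titles carry numbers that recur across groups, and what they mark is not stated. For mice of different groups with the same last number, deviations from group means had a median r of -0.058 across genes (20 pairs, range -0.358 to 0.298). With different last numbers, the median r was -0.006 (76 pairs). These values cannot tell whether the number marks a batch, a cage, or nothing shared. In a fit with this number as a replicate block, chosen after seeing the data, 0 members and 0 of the further redox genes were called in HFD versus control. With 4 mice per group, small differences were not detectable.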
